A study of Danio rerio with 4 samples.

Results

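The open regions of the long arm of zebrafish chromosome 4 were taken from lists of ATAC-seq peaks. Regions were formed by joining overlapping peaks of 4 lists (minimum overlap 1 bp), and those of chromosome 4 that started at or beyond position 28000000 (danRer7) were kept. These were 17050 of the 694637 regions of the genome, or 2.45%. They were set against the 13195 regions of the short arm, which is chromosome 4 below that position, and the 664392 regions of the other chromosomes. The lists came from 4-somite embryos of the Tg(krt4:GFP) line, whose dissociated cells were sorted into GFP-positive cells (periderm, the outermost epithelial layer) and GFP-negative cells (all that remained). There were 2 libraries of each population, made from 50000 cells per library and from 2 independent incrosses, each of which gave both populations. All cells came from the same transgenic line, and the groups were separated by their GFP signal. The krt4 promoter marks superficial epithelium, and the GFP-negative group is a mixture of cell types.

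ATAC-seq uses the Tn5 transposase to cut DNA that is not wrapped in nucleosomes, and fragments under 100 bp come from nucleosome-free regions (NFRs) such as active promoters and enhancers. The long arm of chromosome 4 is known in zebrafish as a late-replicating, heterochromatic arm. It is dense in repeats and holds large families of similar genes, among them zinc-finger and NLR (NOD-like receptor) genes. In wild zebrafish strains the chromosome also carries a sex-linked region. Short reads from such repeats can have several equally good positions in the genome. The mapper used, Bowtie2 at its default settings, reports a single position for such a read, picked at random among equally good ones. No danRer7 sequence or gene annotation was used, so the regions are given by position only. The name heterochromatic was not tested by these lists, which hold no histone mark and no replication timing.

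The value given with each peak was read as its fold over the background of its own library. These folds carry no scaling across libraries, so the percentile of a peak's fold within its own list was used for comparisons. List length was 336052 peaks for GFP-positive replicate 1 and 190059 for replicate 2, and 455867 peaks for GFP-negative replicate 1 and 333588 for replicate 2. A region without a peak in a list is one that was not called there, which is not a region without signal. With 2 libraries in each group, the smallest two-sided p of an exact permutation test is 0.33, and with 4 libraries the smallest p of an exact sign-flip permutation test is 0.13. No comparison below could therefore reach 0.05. The sign-flip tests take the 4 libraries as independent, although these came from 2 incrosses. Their SD and p are thus over libraries and not over incrosses, and these tests were not repeated by incross.

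In the number of merged regions, the long arm lay within the range of the other chromosomes. Over its 34.1 Mb, from position 28000001 to the end of the last peak at 62094618, it held 500.1 regions per Mb. The short arm held 471.3 regions per Mb over 28 Mb, and the other chromosomes held 513.1 regions per Mb. Among 26 units (the long arm, the short arm and the other 24 chromosomes), the long arm was 7th from the lowest, inside the range of the other chromosomes of 489.9 to 552.4 regions per Mb. Its regions covered 5.67% of its length, against 6.33% of the short arm and 6.55% of the other chromosomes.

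Against the short arm, the difference in peak density of the full lists varied in sign between the libraries. The long arm held 242.7 and 118.7 peaks per Mb in the GFP-positive libraries, and 319.2 and 223.1 peaks per Mb in the GFP-negative libraries (replicate 1, then replicate 2, here and below). The log2 ratio of the long-arm to the short-arm peak density was 0.05 and -0.26 in the GFP-positive libraries and 0.03 and -0.12 in the GFP-negative libraries. It was above 0 in both libraries numbered 1 and below 0 in both libraries numbered 2, with a mean of -0.07 ± 0.14 (SD, n = 4, exact sign-flip permutation test, two-sided p = 0.5). Against the other chromosomes, the long arm had fewer peaks per Mb in all 4 libraries, with a mean difference of -17.1 ± 8.18 peaks per Mb (SD, n = 4, exact sign-flip permutation test, two-sided p = 0.13, the smallest possible). The mixed signs against the short arm held for the full lists: the mean log2 ratio was -0.20 with equal numbers of peaks and -0.25 in the upper 50% of each list, below 0 in all 4 libraries each time (exact sign-flip permutation test, two-sided p = 0.13 for each).

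The share of a list that lay on the long arm did not separate the cell populations. It was 2.46% and 2.13% in the GFP-positive libraries, and 2.39% and 2.28% in the GFP-negative libraries. The GFP-positive values lay on either side of both GFP-negative values. The means were 2.30 ± 0.236% in GFP-positive and 2.33 ± 0.0760% in GFP-negative cells (SD, n = 2 each), a difference of -0.0383 percentage points (exact permutation test, two-sided p = 1). When each list was reduced to its 190059 strongest peaks, the length of the shortest list, the shares were 2.32% and 2.13% in GFP-positive cells and 2.23% and 2.17% in GFP-negative cells, and the groups still overlapped.

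The peaks of the long arm were weaker and narrower. The share of long-arm peaks in the strongest 10% of their list was 8.01% and 8.13% in the GFP-positive libraries, and 7.46% and 6.88% in the GFP-negative libraries. On the short arm the same share was 11.3% and 9.93% in the GFP-positive libraries, and 11.5% and 10.7% in the GFP-negative libraries. In each of the 4 libraries the long arm had the lowest such share of the 26 units. The lowest other chromosome was close to it in the GFP-positive libraries, at 8.34 and 8.24%. In the GFP-negative libraries the lowest other chromosome had 9.11 and 8.57%. The difference from the other chromosomes averaged -2.39 ± 0.691 percentage points, and that from the short arm -3.24 ± 1.01 percentage points (SD, n = 4, lower in 4 of 4 libraries, exact sign-flip permutation test, two-sided p = 0.13 for each).

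The middle of the distribution was lower as well. The median fold percentile of long-arm peaks was 42.8 and 46.8 in the GFP-positive libraries, and 48.3 and 43.9 in the GFP-negative libraries. For short-arm peaks it was 52.7 and 52.9 in the GFP-positive libraries, and 56.7 and 52.0 in the GFP-negative libraries. The long arm was lower in every library, with a mean difference of -8.14 ± 1.55 percentile points (SD, n = 4, exact sign-flip permutation test, two-sided p = 0.13, the smallest possible). The median percentile of the other chromosomes was above that of the long arm in GFP-positive replicate 1 and GFP-negative replicate 2 and equal to it in the other libraries, so that the mean difference from them was -4.49 percentile points (exact sign-flip permutation test, two-sided p = 0.5). The mean percentile, which is less bound to the steps of the fold values, was below that of the other chromosomes in 4 of 4 libraries, with a mean difference of -1.99 ± 0.616 percentile points (SD, n = 4, exact sign-flip permutation test, two-sided p = 0.13).

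Very strong peaks were also fewer on the arm. Those in the strongest 1% of their list made up 0.677% and 0.643% of long-arm peaks in the GFP-positive libraries, and 0.496% and 0.447% in the GFP-negative libraries. The share was lower than on the other chromosomes in 4 of 4 libraries, with a mean difference of -0.443 ± 0.114 percentage points (SD, n = 4, exact sign-flip permutation test, two-sided p = 0.13). The highest folds on the long arm were 301.4 and 1403 in GFP-positive cells and 1473 and 1411 in GFP-negative cells. On the short arm they were 301.4 and 352.5 in GFP-positive cells and 736.0 and 661.7 in GFP-negative cells, in no library above the long arm. On the other chromosomes they were 801.1 and 2795 in GFP-positive cells and 3464 and 3261 in GFP-negative cells. The other chromosomes hold many more peaks, and a maximum rises with the number of peaks.

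Long-arm peaks had a median width of 80 and 84 bp in the GFP-positive libraries, and of 84 and 78 bp in the GFP-negative libraries. Short-arm peaks were 97 and 103 bp wide in the GFP-positive libraries, and 95 and 92 bp wide in the GFP-negative libraries. In all 4 libraries the long arm had the lowest median width of the 26 units. The mean difference was -15.25 ± 3.5 bp from the short arm and -11 ± 3.37 bp from the other chromosomes (SD, n = 4, exact sign-flip permutation test, two-sided p = 0.13 for each).

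**Figure D1:**
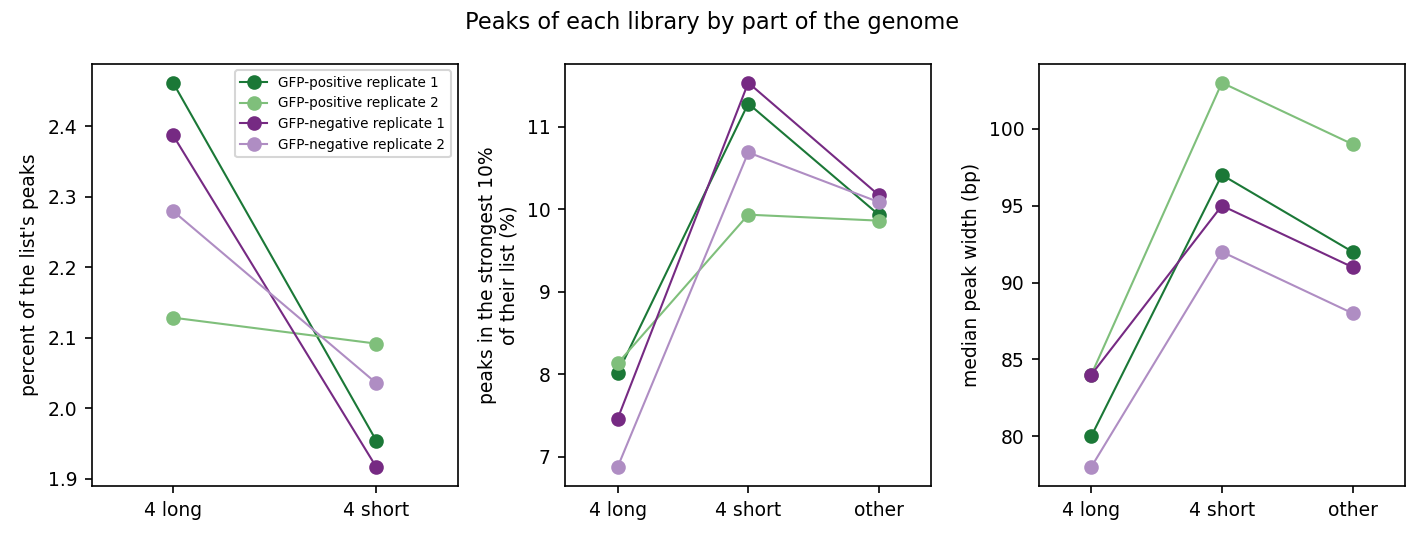
Share of each list on the long and the short arm (percent of the list's peaks), share of peaks in the strongest 10% of their list (percent) and median peak width (bp), for the long arm, the short arm and the other chromosomes. Each point is 1 library and lines join the points of a library. The vertical axes do not start at 0. The long-arm points of the share in the strongest 10% (6.88 to 8.13%) and of the width (78 to 84 bp) lie below those of the short arm and the other chromosomes in all 4 libraries.

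The long arm was narrower also at like fold percentile. Among peaks between the 75th and the 90th percentile of their list, the median width on the long arm was 124.5 and 126 bp in the GFP-positive libraries, and 127 and 124 bp in the GFP-negative libraries. On the other chromosomes, peaks of the same percentiles were 152 and 157 bp wide in the GFP-positive libraries, and 151 and 155 bp wide in the GFP-negative libraries. Among peaks above the 90th percentile, the widths on the long arm were 181 and 186 bp in the GFP-positive libraries and 187 and 193 bp in the GFP-negative libraries. The other chromosomes had 226 and 224 bp there in the GFP-positive libraries and 255 and 250 bp in the GFP-negative libraries. Long-arm peaks were narrower in all 4 libraries in both ranges. Below the 50th percentile the gap between the long arm and the other chromosomes was at most 7 bp.

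Fewer long-arm regions were shared by all libraries. Of the 17050 regions, 2214 (13.0%) held peaks of all 4 lists, against 18.2% on the short arm and 16.0% on the other chromosomes. Over all regions of the genome the share was 15.9%. The long arm was the lowest of the 26 units, and the other 24 chromosomes ranged from 14.9 to 17.1%. Conversely, 10264 long-arm regions (60.2%) were called in 1 list only, against 58.7% of all regions. This was the highest share of the 26 units, but close to the highest other chromosome at 60.0%. Between these, 2980 long-arm regions (17.5%) held peaks of 2 lists, against 15.4% on the short arm and 15.8% on the other chromosomes. Peaks of 3 lists were held by 1592 (9.34%), against 9.85% on the short arm and 9.46% on the other chromosomes.

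The regions called in 1 list came from every library. GFP-positive replicate 1 alone gave 2740 of them (16.1% of the long-arm regions) and GFP-positive replicate 2 gave 484 (2.84%). GFP-negative replicate 1 gave 4896 (28.7%) and GFP-negative replicate 2 gave 2144 (12.6%). Their order follows the order of the list lengths. Only the first was above its share on both the short arm (12.8%) and the other chromosomes (13.5%) by more than 1 percentage point.

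The lower sharing was also seen between each pair of libraries. The Jaccard index, the regions shared by 2 lists as a percent of the regions called in either, was 32.8% for both GFP-positive libraries on the long arm and 32.7% for both GFP-negative libraries. On the short arm these were 42.1% for the GFP-positive and 38.2% for the GFP-negative libraries. On the other chromosomes they were closer to the long arm, at 38.4% for the GFP-positive and 35.0% for the GFP-negative libraries. Pairs of different populations with the same replicate number averaged 30.8% on the long arm, and crossed pairs averaged 28.7%. The crossed pairs were unlike each other, at 32.7% and 24.7%, the lower one from the shortest and the longest list. All 6 pairs were lower on the long arm than on the short arm and on the other chromosomes.

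Sharing was also compared among regions of like strength, taken as the highest fold percentile over the lists. A region in more lists has more peaks to give that highest value. Sharing thus rises with this measure in part by construction, and only the parts within a range are compared. Only 5.66% of long-arm regions, against 8.60% of short-arm regions and 7.47% of those of the other chromosomes, had their strongest peak above the 90th percentile of a list. Within that range, 94.7% of long-arm regions were in all 4 lists, against 95.8% on the short arm and 96.3% on the other chromosomes. Between the 75th and 90th percentiles the shares were 52.3%, 54.4% and 54.5% for the long arm, the short arm and the other chromosomes. Between the 50th and 75th percentiles they were 7.46%, 10.9% and 9.24%, in the same order of parts. In each of these ranges the long arm had the lowest share of the 3 parts. This order did not extend below the 50th percentile. Between the 25th and 50th percentiles, the shares in all 4 lists were 0.715%, 0.588% and 0.762%, in the same order of parts. In that range 73.58% of long-arm regions were in 1 list only, against 76.05% on the short arm and 74.98% on the other chromosomes. Below the 25th percentile the shares in 1 list only were 92.1%, 92.6% and 92.7%.

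The regions in all 4 lists were narrow on the long arm, as its peaks were. Their median width was 189 bp, against 236.5 bp on the short arm and 237 bp on the other chromosomes. The other 24 chromosomes ranged from 231.5 to 245 bp, all wider than the long arm. In the range above the 90th percentile, the 914 long-arm regions in all lists had a median width of 214.5 bp, against 296 bp on the short arm and 292 bp on the other chromosomes. Between the 50th and 75th percentiles, where the long arm had 334 such regions, the widths were 185 bp on the long arm, 188 bp on the short arm and 187 bp on the other chromosomes. Between the 75th and 90th percentiles they were 173 bp, 215 bp and 211 bp in the same order, so that in these 3 ranges the gap was wider in the stronger regions. That order did not extend to the range between the 25th and 50th percentiles. There, 34 long-arm regions in all lists had a median width of 135.5 bp, against 171 bp on the other chromosomes.

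**Figure D2:**
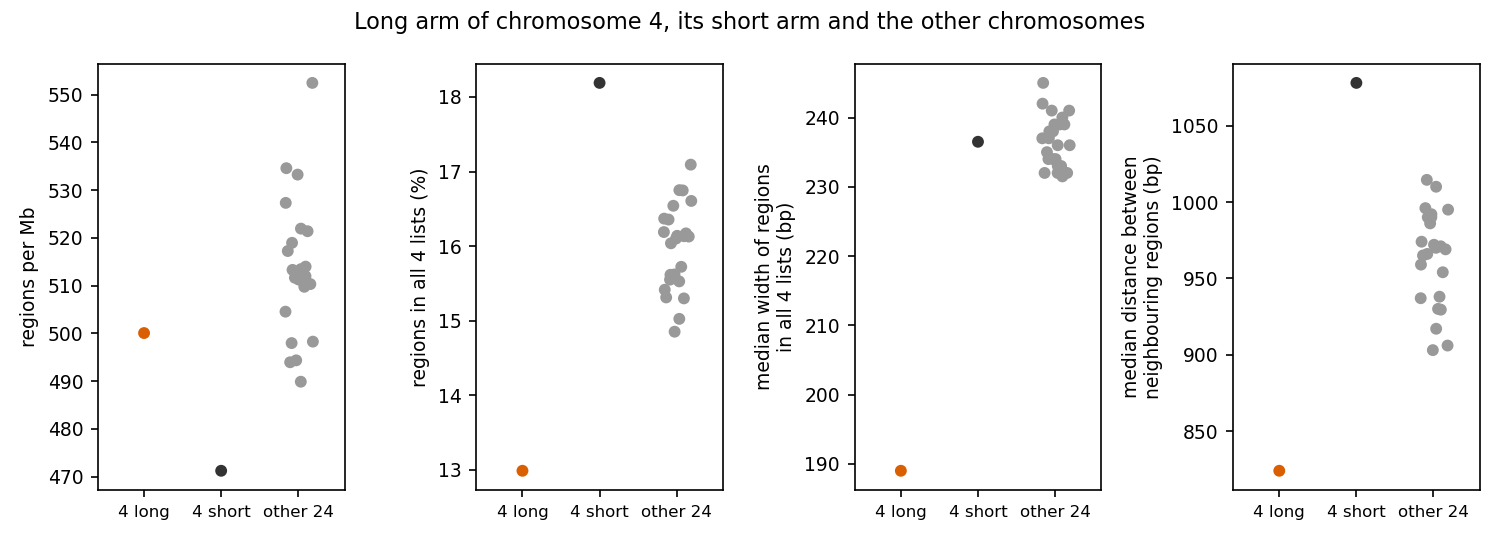
Regions per Mb, percent of regions in all 4 lists, median width of the regions in all 4 lists (bp) and median distance between neighbouring regions (bp), for the long arm of chromosome 4, its short arm and the other 24 chromosomes. Each point is 1 unit, and the vertical axes do not start at 0. The long arm lies within the other chromosomes in density (500.1 regions per Mb) and below all of them in the other measures (13.0%, 189 bp and 824 bp).

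Regions whose calls separated the populations were about as common on the long arm as elsewhere. Regions called in both GFP-positive lists but in neither GFP-negative list are termed GFP-positive-only. There were 290 on the long arm (1.70%), against 1.69% on the short arm and 1.56% on the other chromosomes, and 1.57% over all regions. GFP-negative-only regions, defined in the reverse way, numbered 1058 (6.21%), against 5.99% on the short arm and 5.71% on the other chromosomes, and 5.73% over all regions. Both classes are part of the 2980 long-arm regions called in 2 lists. The remainder of those 2980 paired a GFP-positive list with a GFP-negative list, so a pattern of 2 calls often mixed the populations. The GFP-negative-only share was the highest of the 26 units, above the range of the other chromosomes of 5.35 to 6.09%.

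The balance of these 2 classes depended on the length of the lists. With the 190059 strongest peaks of each list, the long arm held 390 GFP-positive-only regions (4.75% of 8208) and 341 GFP-negative-only regions (4.15%). All regions of the genome gave 4.46% and 4.08% for these classes, and neither long-arm share was the highest or the lowest of the 26 units. In GFP-negative-only regions the long arm, highest in the full lists, was 17th from the lowest of the 26 units with equal numbers and 3rd from the lowest with the upper 50% of each list.

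The group-only regions were of middling or low strength. In the GFP-positive-only regions of the long arm, the median percentile was 52.7 in GFP-positive replicate 1 and 29.8 in GFP-positive replicate 2, and the highest folds were 17.8 and 14.5. In the GFP-negative-only regions it was 48.3 in GFP-negative replicate 1 and 33.3 in GFP-negative replicate 2, with highest folds of 17.4 and 15.9. The short arm had the same medians except in GFP-positive replicate 2, at 39.2. The other chromosomes had the same medians in both classes, so this strength was not particular to the long arm. They reached highest folds of 26.0 and 25.7 for GFP-positive-only regions, and 20.9 and 26.9 for GFP-negative-only regions. They also hold many more such regions, and a maximum rises with their number.

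Group-only regions were ranked by the lower fold percentile of their 2 libraries, so the highest single folds of a class can lie in other regions. At the top of the GFP-positive-only regions by this rule was chr4:50971288-50971473, with folds of 17.8 and 13.6 in GFP-positive replicates 1 and 2. Level with it in the lower percentile was chr4:45513889-45514000, with 13.3 and 13.6, followed by chr4:40590268-40590368, with 10.2 and 12.6. At the top of the GFP-negative-only regions by the same rule was chr4:56549323-56549481, with folds of 11.0 and 15.9 in GFP-negative replicates 1 and 2. It was followed by chr4:47122977-47123176, with 11.8 and 13.9, and chr4:60169041-60169147, with 10.2 and 14.7. The 6 regions were 101 to 200 bp wide, and each lay at a distance from the others. The median widths of their classes on the long arm were 100 bp (GFP-positive-only) and 109.5 bp (GFP-negative-only).

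A second view of the populations comes from the 2214 regions in all lists, through the percentile of the strongest peak of each library. In 202 of them (9.12%) both GFP-positive libraries lay above both GFP-negative libraries, against 6.57% over all regions in all 4 lists. In 736 (33.2%) both GFP-negative libraries lay above, against 40.5% over all such regions. The first share was the highest and the second the lowest of the 26 units. The other 24 chromosomes ranged from 5.46 to 7.68% for GFP-positive libraries above and from 38.4 to 43.6% for GFP-negative libraries above. The short arm had 7.71% and 39.25%, the first just above the range of the other chromosomes and the second within it.

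The same direction was seen in lists of equal length. With equal numbers of peaks, GFP-positive libraries lay above in 30.3% of the 1676 long-arm regions in all lists, against 25.8% on the short arm and 23.1% on the other chromosomes. GFP-negative libraries lay above in 20.5% on the long arm, against 27.3% on the short arm and 27.1% on the other chromosomes.

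The levels behind it were close. The median percentile of long-arm regions in all lists was 82.0 and 67.9 in the GFP-positive libraries, and 84.9 and 78.6 in the GFP-negative libraries. The means were 74.9 ± 9.99 in GFP-positive and 81.7 ± 4.43 in GFP-negative cells (SD, n = 2 each), a difference of -6.80 percentile points that was smaller than the spread within the GFP-positive group (exact permutation test, two-sided p = 0.667). The other chromosomes had the same medians as the long arm in the GFP-positive libraries, and 87.1 and 81.9 in the GFP-negative libraries. These medians are tied by the steps of the fold values. The mean percentiles on the long arm were 75.5 and 61.9 in the GFP-positive libraries and 79.1 and 72.7 in the GFP-negative libraries, against 75.6 and 62.6 in the GFP-positive libraries and 80.8 and 75.3 in the GFP-negative libraries of the other chromosomes, so that all 4 were lower on the long arm. With equal numbers of peaks the long-arm medians were 75.9 and 74.5 in GFP-positive cells, against 73.0 and 71.2 in GFP-negative cells. The difference was then 3.06 percentile points, with no overlap of the groups (exact permutation test, two-sided p = 0.33, the smallest possible). Its sign on the long arm thus depended on the length of the lists. With equal numbers, the short arm had medians of 75.9 and 76.2 in GFP-positive and 77.1 and 76.8 in GFP-negative cells. The other chromosomes had 75.9 and 74.5 in GFP-positive and 76.2 and 75.9 in GFP-negative cells, so neither part had the long-arm order of the groups.

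**Figure D3:**
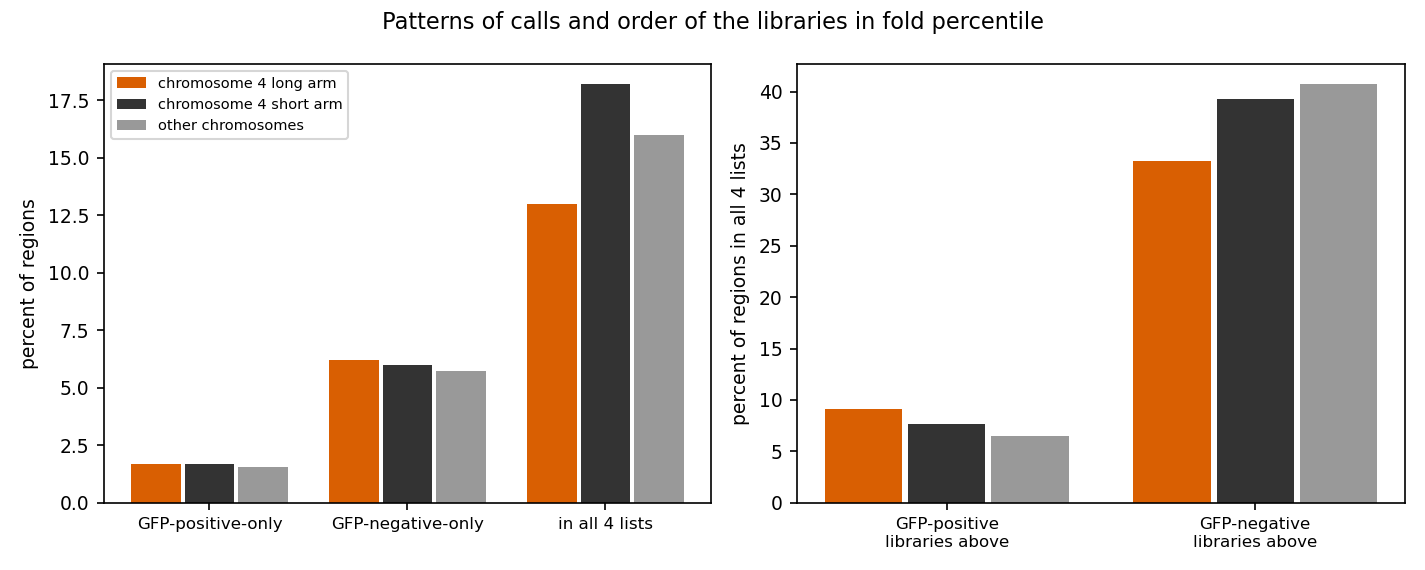
Left, percent of all regions that were GFP-positive-only, GFP-negative-only or in all 4 lists. Right, percent of the regions in all 4 lists in which both libraries of a population lay above both of the other in fold percentile. Bars show the long arm, the short arm and the other chromosomes, with no error bars since each is a share of 1 set of regions. The long arm has the lowest bars for regions in all 4 lists (13.0%) and for GFP-negative libraries above (33.2%), and the highest for GFP-positive libraries above (9.12%).

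The region with the widest gap between the populations towards GFP-positive cells was chr4:52261389-52261782. Its folds were 18.4 and 21.5 in the GFP-positive libraries, against 3.41 and 3.67 in the GFP-negative libraries, and 79.8 percentile points lay between the nearest libraries. It was followed by chr4:44000087-44000193, with 7.65 and 8.43 in GFP-positive against 3.41 and 3.67 in GFP-negative cells, and chr4:40446591-40446806, with 10.2 and 9.36 against 3.03 and 4.08. The last 2 had gaps of 54.9 and 51.2 points, so the first stood well apart.

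Towards GFP-negative cells, the widest gaps were more alike, at 62.4, 61.6 and 60.6 percentile points. The region chr4:46840296-46840494 had folds of 4.08 and 4.21 in the GFP-positive libraries, against 8.72 and 8.98 in the GFP-negative libraries. At chr4:59084756-59085065 the folds were 3.57 and 4.21 in GFP-positive against 10.2 and 7.35 in GFP-negative cells. At chr4:57758877-57759092 they were 4.08 and 5.15 in GFP-positive against 15.2 and 16.7 in GFP-negative cells. These 6 regions were chosen for their gaps, so the values are a description. The folds of the lower group lay near the lowest of their lists, which were 3.06 and 3.28 in the GFP-positive and 2.65 and 2.86 in the GFP-negative lists. There, 1 step of fold spans many percentile points: in GFP-positive replicate 1, folds of 4.08 and 4.59 had percentiles of 16.2 and 29.9. Small differences between gaps are thus less than 1 step.

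The arm was not uniform along its length. Its 34 full 1 Mb bins held between 410 and 700 regions, with a median of 486.5, and the short arm ranged more widely, between 304 and 718 over 28 bins. The densest long-arm bins lay near its end, with 694 regions from 59 to 60 Mb and 700 regions from 60 to 61 Mb. The percent of regions in all 4 lists ranged between 8.25 and 20.7% over the bins, with a median of 12.2%, and 32 of the 34 bins lay under the short-arm median of 18.4%. The exceptions were the first bin, from 28 to 29 Mb, with 93 of 449 regions (20.7%), and the bin from 43 to 44 Mb, with 118 of 579 (20.4%). Measured against the short arm, the lower sharing was thus spread along the long arm. Low values were not limited to it, since short-arm bins ranged between 7.69 and 24.4%. The lowest bin of the chromosome lay on the short arm, from position 25000001 to 26000000. The short arm as a whole (18.2% of regions in all 4 lists) was above the highest other chromosome (17.1%). Bins of the other chromosomes were not compared.

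**Figure D4:**
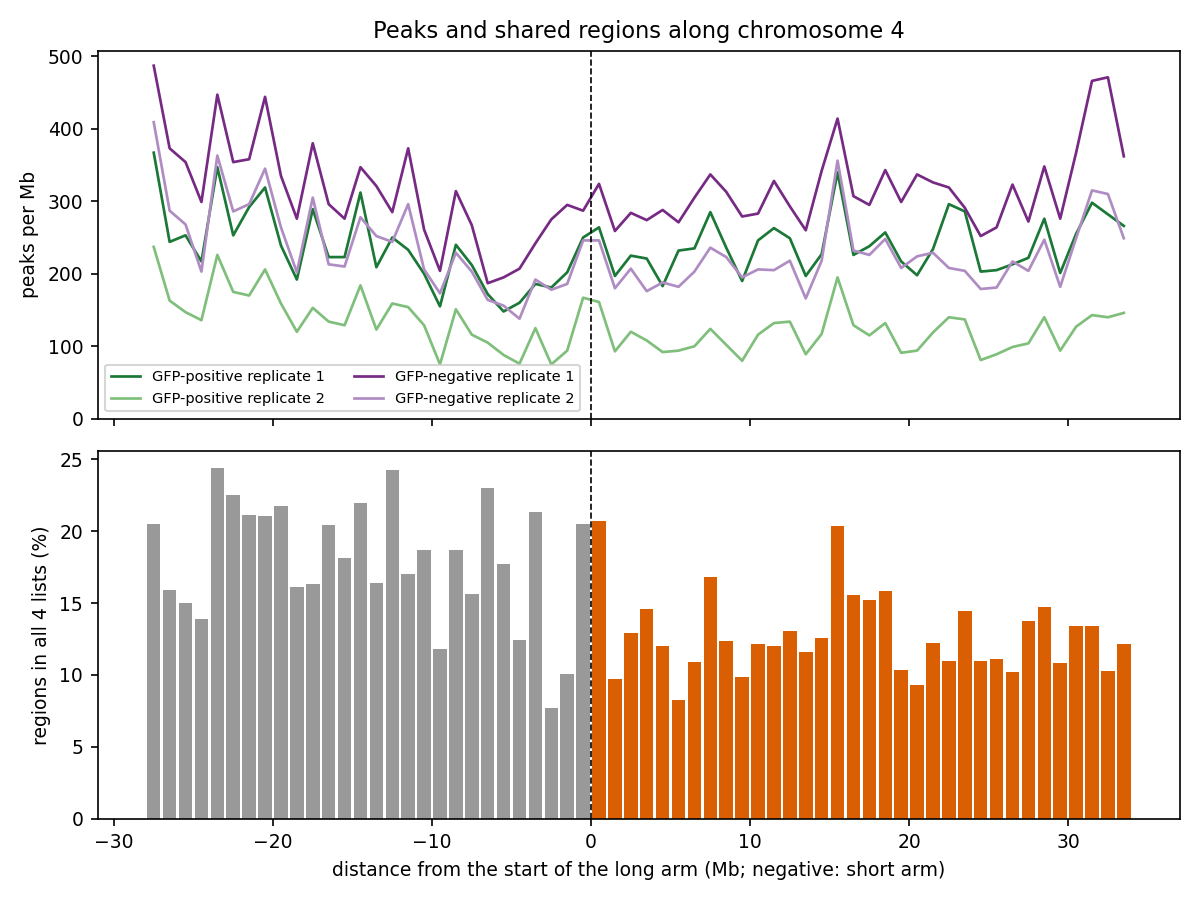
Top, peaks per Mb of each library in 1 Mb bins along chromosome 4. Bottom, percent of the regions of each bin in all 4 lists. The horizontal axis is the distance from the start of the long arm in Mb, with the long arm (orange bars) to the right of the dashed line and the short arm (grey bars) to the left. Long-arm bins range between 8.25 and 20.7%, and 32 of 34 lie under the short-arm median of 18.4%. Short-arm bins range between 7.69 and 24.4%.

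The regions on either side of the boundary were alike in sharing and differed in their highest folds. The first region inside was chr4:28000831-28001458, with folds of 10.7 and 9.36 in the GFP-positive libraries and 14.8 and 12.2 in the GFP-negative libraries. The last region outside was chr4:27997192-27997245, which had no peak in the GFP-positive lists and folds of 4.17 and 4.49 in the GFP-negative lists. The 250 kb inside the boundary held 167 regions, 28.7% of them in all lists, and the 250 kb outside held 135 regions, 25.9% of them in all lists. Both shares were above those of the whole long arm (13.0%) and the whole short arm (18.2%), so these flanks are not typical of either arm. The highest folds inside were 39.3 and 37.9 in the GFP-positive libraries and 48.5 and 42.0 in the GFP-negative libraries. Outside they were 301.4 and 352.5 in the GFP-positive libraries and 736.0 and 661.7 in the GFP-negative libraries. These outside values equal the highest folds of the whole short arm in every library. A highest fold can rest on a single site, and the median strength of the sides was not compared. The median region width was 101 bp inside and 127 bp outside.

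On a finer scale, long-arm regions lay close together but were broken by long empty stretches. The median distance between neighbouring regions was 824 bp, the lowest of the 26 units, against 1078 bp on the short arm and a range of 903 to 1014.5 bp over the other chromosomes. Distances under 1 kb made up 54.3% on the long arm, against 48.2% on the short arm and 50.9% on the other chromosomes. At the same time the long arm had 57 stretches over 20 kb with no region, or 167.2 per 100 Mb, against 100 per 100 Mb on the short arm and 55.1 per 100 Mb on the other chromosomes. The longest were 74903 bp from position 56891243 to 56966145, 49964 bp from 43746571 to 43796534, and 37125 bp from 31056227 to 31093351. Whether these hold sequence that short reads can be placed on was not analysed here.

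Dense clusters of regions were found in the middle and at the end of the arm. The densest tile of 100 kb or less was the last of the chromosome, from 62000001 to 62094618, with 135 regions, of which 45 were in all lists and 49 in 1 list. It held 111 and 69 peaks in the GFP-positive libraries, and 112 and 89 peaks in the GFP-negative libraries. The second was 43900001 to 44000000, with 130 regions, of which 56 were in all lists, none was GFP-positive-only and 12 were GFP-negative-only. It held 107 and 83 peaks in GFP-positive cells and 112 and 138 peaks in GFP-negative cells. The third was 37900001 to 38000000, with 111 regions, and it differed from the others in having only 4 in all lists. It held 68 regions in 1 list, 1 GFP-positive-only region and 18 GFP-negative-only regions, against 7 GFP-negative-only in the first tile. Its peaks numbered 35 and 10 in GFP-positive cells and 80 and 57 in GFP-negative cells. Over the long arm, 13.0% of regions were in all lists, 60.2% in 1 list, 1.70% GFP-positive-only and 6.21% GFP-negative-only. Over all regions of the genome these shares were 15.9%, 58.7%, 1.57% and 5.73%. Tiles of this density were not particular to the arm, since 76 tiles elsewhere held at least as many regions as the first.

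The strongest open site of the arm lay just before the second of these tiles. The region chr4:43897975-43898359 had folds of 301.4 and 1403 in the GFP-positive libraries, and of 1473 and 1411 in the GFP-negative libraries. Its neighbour chr4:43898519-43898833 was the second strongest, with 229.0 and 361.4 in the GFP-positive libraries and 393.6 and 418.4 in the GFP-negative libraries. GFP-positive replicate 1 had the lowest fold at both sites. Within 20 kb to either side there were 44 and 30 peaks in GFP-positive cells and 61 and 66 peaks in GFP-negative cells, of which 2 or 3 in each library had a fold over 50. Over the whole arm, 51 and 38 peaks in GFP-positive cells and 65 and 69 peaks in GFP-negative cells passed that fold.

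**Figure D5:**
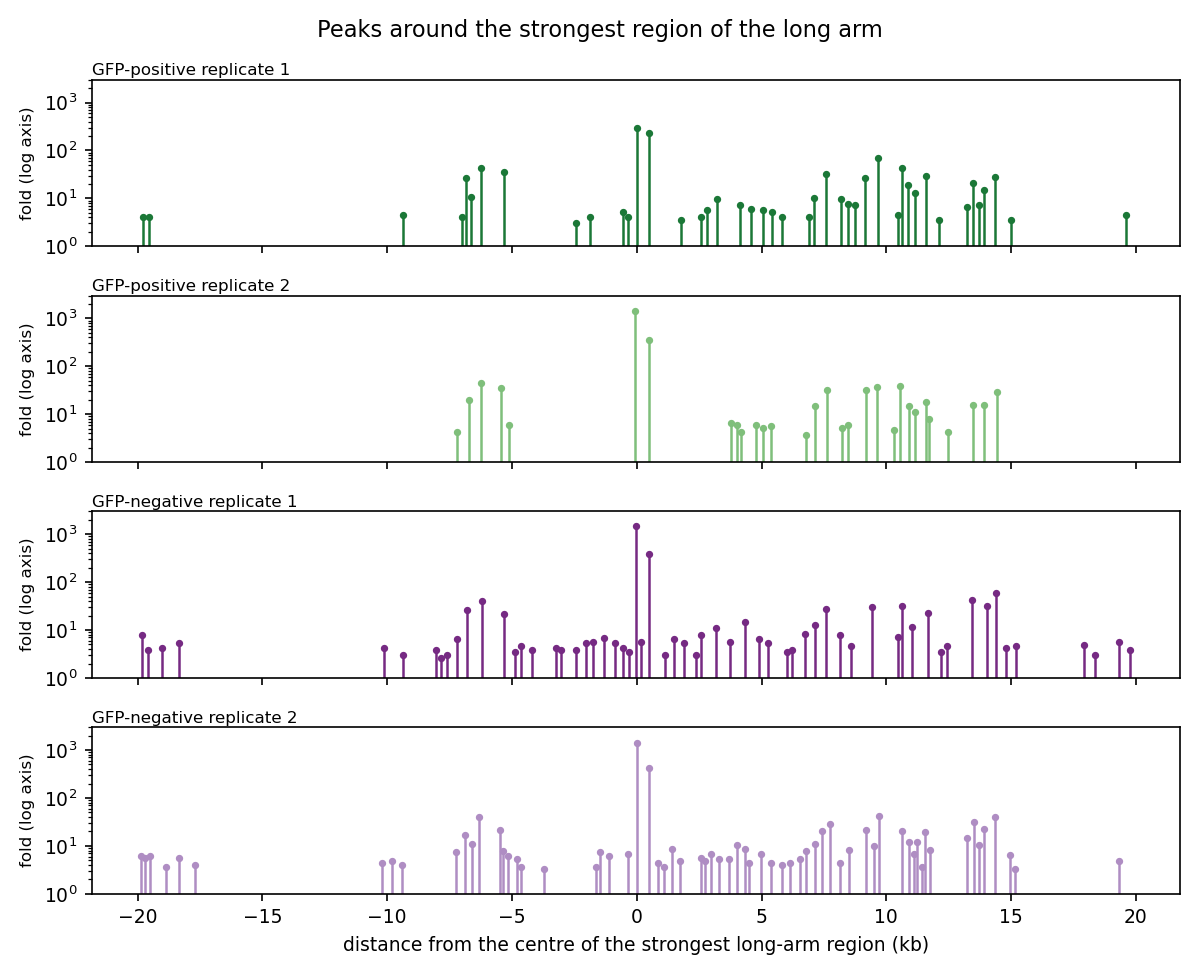
Peaks within 20 kb of the centre of the strongest region of the long arm, one panel for each library. The horizontal axis is the distance from that centre in kb and the vertical axis is the deposited fold on a log axis. Each stem is 1 peak. The pair of strong peaks at the centre, with folds of 229.0 to 1473, stands above the other peaks in all 4 libraries, and runs of peaks lie on both sides.

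The other strongest regions lay elsewhere on the arm. The region chr4:31622050-31622668 had folds of 155.0 and 191.9 in the GFP-positive libraries, and of 274.2 and 273.1 in the GFP-negative libraries. At chr4:30416352-30416611 the folds were 134.1 and 136.7 in GFP-positive cells and 364.0 and 267.4 in GFP-negative cells. At chr4:60232037-60232413 they were 92.3 and 100.6 in GFP-positive cells and 188.8 and 177.2 in GFP-negative cells. In these 3 regions both GFP-negative folds were above both GFP-positive folds, on values not scaled between libraries. In percentiles all were above 99.8 in every library, so they ranked near the top of each list.

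The widest region was of another kind. It spanned 17568 bp, chr4:61288287-61305854, and was called almost without a break in each library. Its peaks covered 16693 and 16445 bp in the GFP-positive libraries, as 7 peaks in each, and 17555 and 17511 bp in the GFP-negative libraries, as 1 and 2 peaks. The highest folds in it were 65.8 and 87.1 in GFP-positive cells and 192.6 and 175.1 in GFP-negative cells. The next widest regions were 3786 bp at chr4:43970913-43974698, with folds of 73.9 and 69.8 in GFP-positive and 58.0 and 59.2 in GFP-negative cells, and 2304 bp at chr4:28185294-28187597, with folds of 21.4 and 16.4 in GFP-positive and 22.8 and 15.1 in GFP-negative cells. Both were joined from several peaks, 15 and 21 over the 4 lists.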

How the data were processed

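NFR peak lists of 4 ATAC-seq libraries (2 GFP-positive, 2 GFP-negative; groups and replicate numbers from the labels) were used. The authors trimmed reads with Trimmomatic, mapped them to danRer7 with Bowtie2 at default settings, removed duplicates with SAMtools, kept fragments under 100 bp, and ran MACS2 2.1.1 on every library by itself (no local background, genome size 1.4e9, extension 54 bp). The submitters' processing notes list danRer10, but the chromosome ends reached by the peaks and the study's methods fit danRer7. The deposited value of each peak has no column name and was read as a ratio, the fold over a constant background of the same library. No read counts were used, so depth was not determined and no counting interval is given. The smallest step between fold values was 0.510 and 0.468 in the GFP-positive lists and 0.379 and 0.408 in the GFP-negative lists. These steps were not turned into depth. At those mapping settings a read with several equally good positions is given one of them at random, and whether such reads were filtered later is not given in the sources used here. Reads of near-identical repeats can thus be spread over copies or stacked on a collapsed copy, which bears on fold, width and sharing on this arm, and this was not tested. The authors' differential test with DiffBind needs reads and was not run.

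Starts were converted to count from 1. Peaks were merged with a 1 bp overlap, and folds were turned into percentiles within each list (Python 3.11.15, numpy 2.4.6, pandas 2.3.3, scipy 1.17.1, matplotlib 3.10.9). Peak shares, percentiles and densities were compared over libraries by exact permutation tests. Regions are not replicates, so counts of regions carry no test. The merging was checked on simulated lists of well-separated sites, so chains of peaks and closely set sites were not covered by the check. The study collected both populations from each of 2 incrosses. The labels do not state that a replicate number marks an incross. On the long arm, the mean Jaccard index was 30.8% for pairs of different populations with the same number and 28.7% for crossed pairs. The same-number pairs had 30.6% and 31.0%. The crossed pairs had 32.7% (GFP-positive replicate 1 with GFP-negative replicate 2) and 24.7% (GFP-positive replicate 2 with GFP-negative replicate 1). The last pair joins the shortest and the longest list, so these means cannot show whether a number marks an incross.

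The regions named were the 5 strongest in all lists, the 3 strongest of each group-only class, the 3 with the widest gap towards each group, the 3 widest, the 3 densest tiles of 100 kb, the 3 longest empty stretches and those nearest the boundary. The strongest regions here were those whose lowest fold percentile over their lists was highest. The members and these rules were chosen with earlier results of these data known. Alternatives were the upper 50% of each list, equal numbers of the strongest peaks (ties taken at random), a minimum overlap of 50% of the shorter peak, a boundary at 30000000, the other chromosomes as comparison, each library left out and a replicate block. Leaving out the last 4 Mb of the arm, the order of the populations in fold percentile with shortened lists and the widths at like strength were added after seeing the data.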

Additional observations from a re-analysis of the deposited data

How the results depend on the processing

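The lower fold percentile of long-arm peaks kept its direction in all alternatives, between -4.49 (against the other chromosomes, exact permutation p = 0.5) and -8.81 percentile points, and the log2 density ratio against the short arm stayed below 0, between -0.01 and -0.25, with all 4 libraries below 0 in the upper 50% and with equal numbers but not in the full lists. The difference in the long-arm share of peaks had no stable sign: it was 0.0242 percentage points with equal numbers of peaks and between -0.205 and 0.128 with each library left out. Under the replicate block it was -0.0383 (0.0746 in replicate 1 and -0.151 in replicate 2, exact permutation p = 1). The percentile difference between populations in regions in all lists was 3.06 with equal numbers, between -19.0 and -3.93 with each library left out, and -6.80 under the replicate block (-2.86 and -10.7, exact permutation p = 0.5, the smallest possible). GFP-positive-only regions made up 4.75% with equal numbers and 2.87 to 18.3% with each library left out. GFP-negative-only regions made up 6.91% in the upper 50%, 4.15% with equal numbers, 5.42% with the 50% overlap and 7.60 to 40.1% with each library left out. Regions in all lists made up 18.1%, 20.4% and 12.1% under the same 3 settings, and 16.8 to 19.1% with each library left out, where absence or presence rests on fewer lists by construction. The long arm kept the lowest share and the lowest width of regions in all lists of the 26 units in the upper 50% and with equal numbers. A boundary at 30000000 and leaving out the last 4 Mb changed no direction.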
